A study of Oncorhynchus mykiss with 30 samples.

Results

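The probes of SLC25A4 (CUST_21720_PI425536763), SLC25A6 (CUST_8591_PI425536763), TPI1 (CUST_21719_PI425536763) and Aldh7a1 (CUST_6043_PI425536763), 4 of the 60195 probes on the array, were followed in the gonads of all-male rainbow trout fry. They were chosen by their own readout: the study listed these genes as under-expressed at the lower concentrations of 17α-ethynylestradiol (EE2), the synthetic oestrogen of contraceptive pills, and not called at the higher ones. The groups were a solvent control and fry exposed to 0.01, 0.1, 1 or 10 μgEE2/L for 76 days, up to 136 days post-fertilisation. These are nominal concentrations, and in the study's measurements the lowest was under the detection limit. Each group had 3 tanks and each tank gave 2 pools of gonads, so that 6 pools per group and 30 in all were hybridised, 1 pool per single-color Agilent array. A pool mixes the gonads of several fish, and a gonad holds germ cells and somatic cells. A lower signal can therefore mean fewer cells of a type or less RNA per cell, and these cannot be told apart.

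The contrasts against the control are named CT1 (0.01 μgEE2/L), CT2 (0.1 μgEE2/L), CT3 (1 μgEE2/L) and CT4 (10 μgEE2/L), with the control subtracted. With limma and a threshold of 0.05 on the adjusted p, 227 probes were called in CT1 and CT2 and in neither CT3 nor CT4. Lower levels in CT1 and CT2 were found for 155 of them, and 21 were over 2-fold lower in CT1, with all 4 probes described here among the 21. The nearest probe inside that 2-fold limit had a log2 difference of -1.02 in CT1 and the nearest outside it had -0.998. The array files give these probes no gene name but sequence-read identifiers. For each gene, 1 probe carried the fold changes and adjusted p-values that the study prints beside its name, so the names also rest on CT1 and CT2, and are those of the best matching human proteins (SLC25A4, SLC25A6, TPI1) or zebrafish protein (Aldh7a1). All values against the control are therefore given as a description without a test.

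SLC25A4 and SLC25A6 encode ADP/ATP translocases, carriers of the inner mitochondrial membrane that bring ADP into the matrix and let ATP out to the cytosol. TPI1 encodes triosephosphate isomerase, the glycolytic enzyme that interconverts dihydroxyacetone phosphate and glyceraldehyde 3-phosphate, so that both products of the splitting of a hexose can enter the later steps of glycolysis. Aldh7a1 encodes an aldehyde dehydrogenase, known from mammals as antiquitin, that oxidises an intermediate of lysine breakdown and other aldehydes. The 4 proteins thus stand at different steps of energy and amino acid metabolism: glycolysis in the cytosol, lysine breakdown, and the exchange of adenine nucleotides across the mitochondrial membrane.

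On every array all 4 probes were well above background, and none of their spots was saturated or marked as an outlier. Each had its lowest processed signal on replicate 4 at 0.1 μgEE2/L. For SLC25A4 and Aldh7a1 this was 20.1 and 22.3, with a median intensity of 56 and 55 over a local background of 32 and 35. These 2 values are thus of low intensity. Levels below are log2 of the processed signal after quantile normalisation and are compared within a probe only. The 75th percentile of the processed signal, used as the brightness of an array, lay between 359 and 1238, and between 75.6% and 88.2% of probes were well above background. Control replicate 4 and replicate 1 at 0.1 μgEE2/L are arrays with a dim centre, where 19.0% and 19.3% of probes fell over 4-fold below their group median, against at most 0.842% on the other 28 arrays. None of the 4 probes lies in this centre. Outside it, replicate 1 at 0.1 μgEE2/L stood 0.30 above its group median over all probes after quantile normalisation. The 4 probes stood 0.83 to 1.06 above theirs on that array, and the probes around them 0.11 to 0.43. On control replicate 4 TPI1 stood 0.37 above its group median and the probes around it 0.44. Aldh7a1 was at -0.17 there and its neighbours at -0.26, SLC25A4 at -0.31 and -0.0014, and SLC25A6 at -0.03 and -0.02. FOXL2 (TC126540), a transcription factor of the ovary, was 9.03 and 8.97 in replicates 2 and 6 of the control and 6.91 to 7.77 in the other controls, so that these 2 pools stand apart in an ovarian gene. None of the markers of testis, ovary and germ cells looked for, FOXL2 included, could be tied to a probe by the names on the array. The probe of FOXL2 was taken from the study.

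SLC25A4, the first translocase, had a level of 7.52 ± 0.26 (SD, n = 6) in the control, from 7.13 through a median of 7.59 to 7.83. At 0.01 μgEE2/L its level was 6.31 ± 0.21 (SD, n = 6), from 6.07 through 6.24 to 6.61. At 0.1 μgEE2/L it was 6.03 ± 0.78 (SD, n = 6), from 4.71 through 6.10 to 7.09. The 6 pools at each of these concentrations lay below every control, but the spread at 0.1 μgEE2/L was wide, with replicate 4 at 4.71 and replicate 1 at 7.09. At 1 and 10 μgEE2/L the level was 7.06 ± 0.40 and 6.93 ± 0.41 (SD, n = 6), with 5 and 4 of 6 pools below every control. The log2 difference from the control was -1.21 (SE 0.26) in CT1, where 5.09% of all probes were called lower, and -1.48 (SE 0.26) in CT2, where 14.3% were. It was -0.46 in CT3 and -0.59 in CT4 (SE 0.26), where 21.2% and 22.5% of probes were called lower. The means at the higher concentrations thus lay between those of the control and the lower concentrations, and their ranges overlapped those of the control and of 0.1 μgEE2/L. The lowest pool at 10 μgEE2/L, at 6.45, lay within the range at 0.01 μgEE2/L, whereas the lowest at 1 μgEE2/L, at 6.609, lay just above the highest at 0.01 μgEE2/L, at 6.608.

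SLC25A6, the second translocase, had a control level of 9.72 ± 0.28 (SD, n = 6), from 9.26 through 9.73 to 10.07. It was 8.68 ± 0.16 at 0.01 μgEE2/L (SD, n = 6), from 8.50 through 8.63 to 8.88, and 8.63 ± 0.45 at 0.1 μgEE2/L (SD, n = 6), from 8.06 through 8.57 to 9.40. Below every control were 6 of 6 pools at 0.01 μgEE2/L and 5 of 6 at 0.1 μgEE2/L, the exception being replicate 1. At 1 μgEE2/L the level was 9.93 ± 0.57 (SD, n = 6), from 9.12 through 9.93 to 10.74. At 10 μgEE2/L it was 9.68 ± 0.94 (SD, n = 6), from 8.57 through 9.58 to 10.99. At both higher concentrations the pools spread to both sides of the control, with 2 pools above every control in each group and 1 and 3 below. The log2 differences were -1.05 and -1.09 in CT1 and CT2 and 0.21 and -0.04 in CT3 and CT4 (SE 0.31).

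TPI1, the glycolytic enzyme, had a control level of 8.999 ± 0.40 (SD, n = 6), from 8.34 through 9.03 to 9.40. At 0.01 μgEE2/L it was 7.82 ± 0.43 (SD, n = 6), from 7.41 through 7.62 to 8.42. At 0.1 μgEE2/L it was 7.35 ± 0.99 (SD, n = 6), from 6.11 through 7.41 to 8.39. In each group 5 of 6 pools lay below every control, and the exceptions, at 8.42 and 8.39, lay just above the lowest control of 8.34. The 6 pools at 0.1 μgEE2/L fell apart into replicates 1, 2 and 5 at 8.39, 7.94 and 8.32 and replicates 3, 4 and 6 at 6.88, 6.11 and 6.48. At 1 and 10 μgEE2/L the level was 8.33 ± 0.48 and 8.25 ± 0.20 (SD, n = 6), with 2 and 3 pools below every control. The log2 differences were -1.18 in CT1, -1.64 in CT2, -0.67 in CT3 and -0.75 in CT4 (SE 0.32).

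Aldh7a1, the aldehyde dehydrogenase, had a control level of 7.54 ± 0.37 (SD, n = 6), from 7.16 through 7.44 to 8.14. It was 6.48 ± 0.38 at 0.01 μgEE2/L (SD, n = 6), from 5.98 through 6.50 to 6.95, and 6.32 ± 0.89 at 0.1 μgEE2/L (SD, n = 6), from 4.87 through 6.26 to 7.32. All 6 pools at 0.01 μgEE2/L were below every control, whereas at 0.1 μgEE2/L replicates 1 and 2 reached into the control range and 4 pools were below it. At 1 and 10 μgEE2/L the level was 6.91 ± 0.22 and 7.02 ± 0.51 (SD, n = 6), with 5 and 3 of 6 pools below every control. The log2 differences were -1.06 in CT1, -1.22 in CT2, -0.63 in CT3 and -0.52 in CT4 (SE 0.30).

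**Figure D1:**
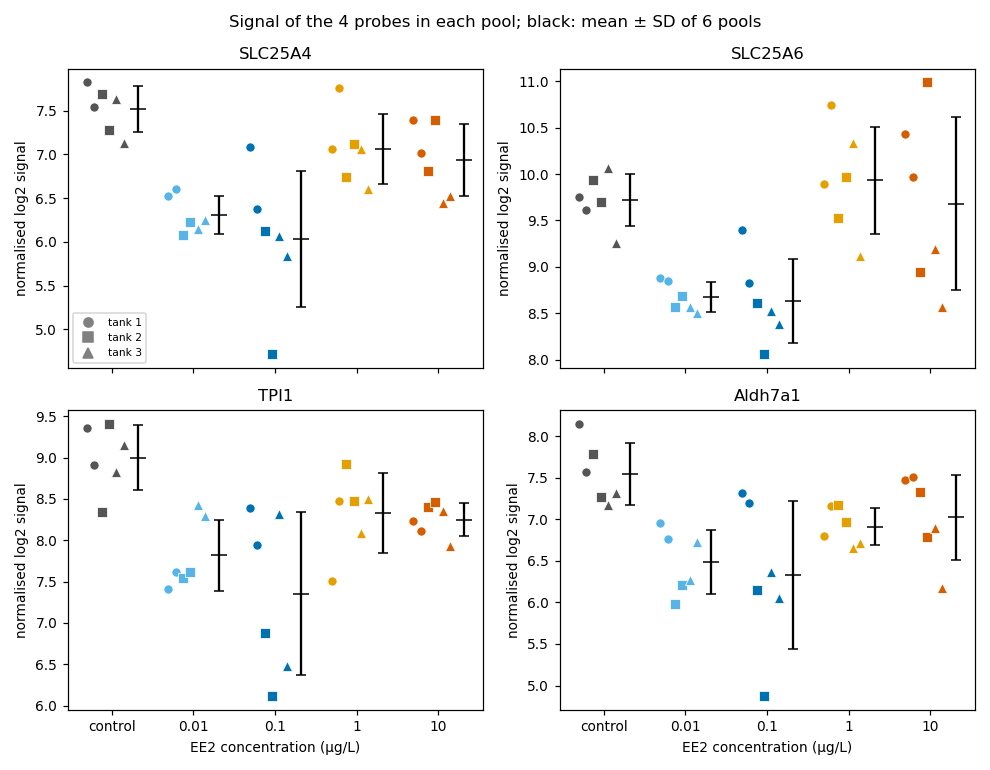
Normalised log2 signal (vertical axis) of the 4 probes in each of the 30 pools by EE2 concentration in μg/L (horizontal axis); marker shapes are tanks and the black bars are the mean ± SD of 6 pools. SLC25A4 lay below every control in all pools of both lower concentrations, and the spread at 0.1 μgEE2/L was wide, from 4.71 to 7.09.

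In order of level, SLC25A4 and TPI1 ran from the control through 1, 10 and 0.01 to 0.1 μgEE2/L. Aldh7a1 had 10 before 1 μgEE2/L, and SLC25A6 had 1 μgEE2/L first, followed by the control. For each of the 4 probes, neighbours in this order overlapped within 1 SD of their means. The median log2 difference of the 4 probes was -1.12 in CT1 and -1.35 in CT2, against -0.02 and -0.0030 for all probes. In CT3 and CT4 it was -0.55 and -0.55, against -0.02 and -0.03 for all probes. CT1 to CT4 share the same 6 controls, so the 4 values of a probe are not independent. In fold terms, the level at 0.01 μgEE2/L was 2.31-fold lower than in the control for SLC25A4, 2.06-fold for SLC25A6, 2.27-fold for TPI1 and 2.08-fold for Aldh7a1.

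**Figure D2:**
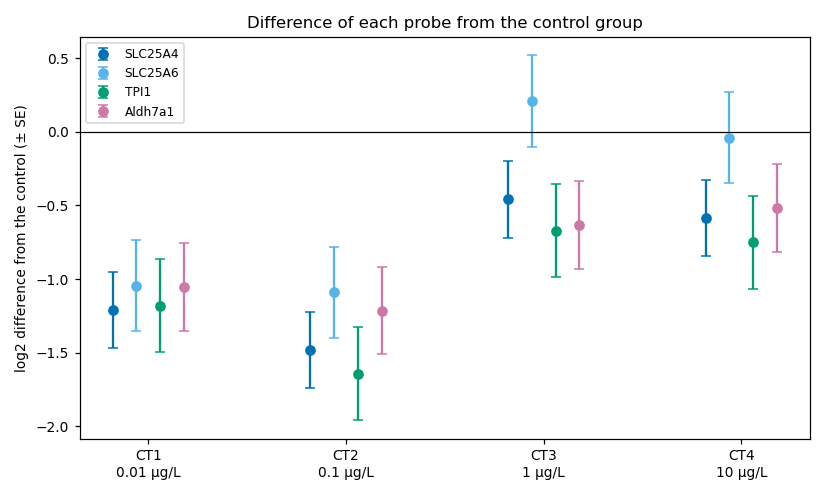
Log2 difference from the control (vertical axis, ± SE of the limma fit) of each probe in CT1 to CT4 (horizontal axis). In CT1 the 4 probes lay between -1.21 and -1.05, whereas in CT3 and CT4 SLC25A6 lay near 0, at 0.21 and -0.04, and the others between -0.75 and -0.46.

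Whether the probes met the definition they were chosen by depended on the setting. All 4 met it in the quantile-normalised values, in the deposited table and with the tank as a random block. Scaling each array to its 75th percentile left SLC25A6 alone, and so did the normexp background correction and a fit to only the 2 groups of each contrast. The slide as a block left 2 probes, and so did the replicate block, the brightness of the array as a covariate and array weights. Median centring, a filter on dim probes and leaving out the 2 arrays with a dim centre each left 3. With the 2 pools of a tank averaged, SLC25A4 alone met it. Except for the slide block, median centring and tank means, all 4 stayed called in CT1 and CT2 in these settings. The probes lost there were called in CT3 or CT4 as well. Called in CT1 and CT2 were 3 probes with the slide block, 3 with median centring and 1 over tank means. These 2 contrasts chose the probes, so this is a description. How many of all probes met the definition in each setting is not given. Nor is the number called in both CT1 and CT2, so neither count can be set against the whole array. The total of calls also moved in a comparison outside the definition. Between 0.01 and 0.1 μgEE2/L it was 6313, with tank means 4661 and with array weights 7982. When 1 array was left out at a time, the number of the 4 probes meeting the definition lay between 1 and 4. It was 4 in 14 of the 30 settings. Without replicate 4 at 0.1 μgEE2/L the median difference in CT2 was -1.10, and without replicate 1 of that group it was -1.55.

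The step within the lower pair of concentrations is the difference between CT2 and CT1, and that within the higher pair the difference between CT4 and CT3. The choice of the probes used both members of each pair and so favoured small steps, and both are given as a description without a test. From 0.01 to 0.1 μgEE2/L, where 10.5% of all probes were called, the log2 difference was -0.27 for SLC25A4 (95% interval of the limma fit -0.81 to 0.26) and -0.46 for TPI1 (-1.11 to 0.19). It was -0.04 for SLC25A6 (-0.68 to 0.59) and -0.16 for Aldh7a1 (-0.77 to 0.45). The size of this step rested on single pools at 0.1 μgEE2/L. Without replicate 4 of that group it was -0.0081 for SLC25A4, 0.071 for SLC25A6, -0.21 for TPI1 and 0.13 for Aldh7a1, and without replicate 1 it was -0.48, -0.20, -0.67 and -0.36. From 1 to 10 μgEE2/L, where 0.00332% of probes were called, the difference was -0.13 for SLC25A4 (95% interval -0.66 to 0.41), -0.25 for SLC25A6 (-0.88 to 0.39), -0.08 for TPI1 (-0.72 to 0.57) and 0.12 for Aldh7a1 (-0.49 to 0.72). The intervals cover the spread between pools and not the choice of the probes, and they do not show that the paired concentrations act alike. Within the 4 slides, each of which held all groups, the step from 0.01 to 0.1 μgEE2/L had no fixed sign: for SLC25A4 it lay between -0.71 and 0.66 and was below 0 on 2 of 4 slides. In CT1 and CT2, which chose the probes, each of the 4 was lower than the control on 4 of 4 slides. This is a description only, and on some slides it set 1 pool against 1 pool.

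The pools of a group were then compared with each other. The choice of the probes used the size of the spread within groups, through the adjusted p. It did not use how 2 probes vary together within groups. Each value was taken as its deviation from the mean of its group, and the deviations of 2 probes were correlated over the 30 pools, with permutations within groups and adjustment over the 6 pairs. SLC25A4 and SLC25A6, the 2 translocases, varied together, with r = 0.78 and rho = 0.87 (two-sided permutation p = 1e-05 for each, the smallest that 100000 permutations can give, adjusted 6e-05). The sign was the same in 5 of 5 groups, with r from 0.73 in the control to 0.95 at 0.1 μgEE2/L (n = 6 pools each), and r was 0.85 without the 2 pools farthest from the median of SLC25A4. With the slide in the residuals r was 0.83, with brightness 0.78, and within single slides of 7 or 8 arrays it lay between 0.79 and 0.91. Over the means of the 15 tanks r was 0.86 (adjusted permutation p = 0.0067). Probe sequences were not used here, and whether either probe also binds transcripts of the other translocase was not tested.

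SLC25A4 and Aldh7a1 also varied together, with r = 0.77 (permutation p = 7e-05, adjusted 0.00021) and rho = 0.62 (permutation p = 0.00115, adjusted 0.00345). The sign was the same in 5 of 5 groups, from 0.41 at 1 μgEE2/L to 0.95 at 0.1 μgEE2/L (n = 6 pools each). Within single slides of 7 or 8 arrays r lay between 0.19 and 0.88, a wider range than for the 2 translocases. Without the 2 pools farthest from the median, both at 0.1 μgEE2/L, r was 0.56, and without that group it was 0.53 (adjusted permutation p = 0.035). For SLC25A6 and Aldh7a1 r was 0.44 (permutation p = 0.023, adjusted 0.035). Their rho was 0.36 (adjusted permutation p = 0.099, unadjusted 0.066), so that Pearson's r passed the threshold and Spearman's rho did not. The r was positive in 5 of 5 groups, and within single slides it lay between -0.02 and 0.81. Without the 2 pools farthest from the median of SLC25A6, both at 10 μgEE2/L, r was 0.50. Without the pools at 0.1 μgEE2/L it was 0.30 (adjusted permutation p = 0.55), and the relation did not pass without that group.

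TPI1 went less clearly with the other probes. Its r was 0.55 with Aldh7a1 (permutation p = 0.021, adjusted 0.035), where rho was 0.41 (permutation p = 0.051, adjusted 0.099). It was 0.42 with SLC25A4 (permutation p = 0.14, adjusted 0.16), where rho was 0.15 (permutation p = 0.48, adjusted 0.57). With SLC25A6 r was 0.17 and rho 0.04 (permutation p = 0.32 and 0.85, adjusted 0.32 and 0.85). The 3 values of r fell to 0.28, -0.02 and 0.12 without the 2 pools farthest from the median of TPI1, SLC25A4 and SLC25A6 in turn. At 0.1 μgEE2/L alone r was 0.84, 0.81 and 0.78 with Aldh7a1, SLC25A4 and SLC25A6. Over the other 24 pools it was 0.14, -0.15 and -0.09, so that the sign with the translocases turned. At 0.1 μgEE2/L all 4 probes were highest on replicate 1, an array with a dim centre, and lowest on replicate 4, the dimmest of the group. Leaving out replicate 4 alone, r over the remaining pools of all groups was 0.38, 0.16 and 0.07 with Aldh7a1, SLC25A4 and SLC25A6. The r within that group without these 2 arrays is not given. In the control and at 0.01 μgEE2/L r was -0.35 and -0.41 with SLC25A4 and -0.46 and -0.70 with SLC25A6 (n = 6 pools each). The difference between groups in r was not tested.

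**Figure D3:**
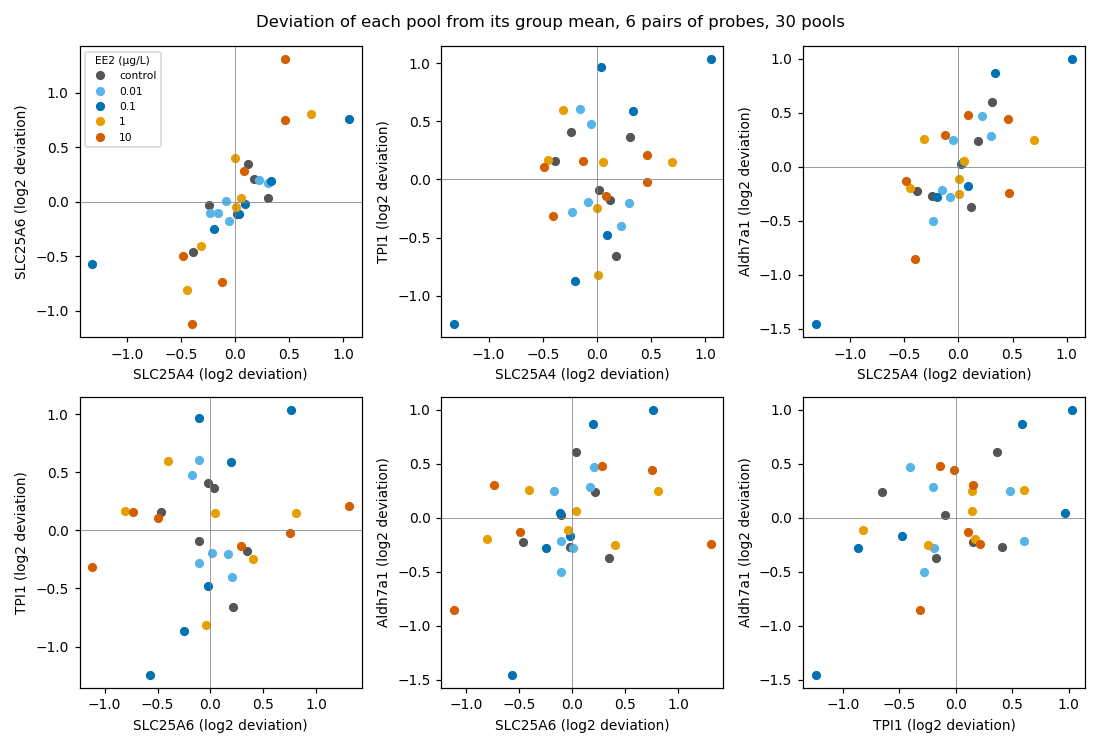
Deviation of each pool from its group mean on the log2 scale for the 6 pairs of probes, 1 probe on each axis, 30 pools, colours are EE2 concentrations. SLC25A4 and SLC25A6 (r = 0.78) rise together within each of the 5 groups, whereas SLC25A6 and TPI1 (r = 0.17) do so in 2. The groups do not share a line: the SD of SLC25A6 and SLC25A4 was 0.45 and 0.78 at 0.1 μgEE2/L and 0.94 and 0.41 at 10 μgEE2/L.

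**Figure D4:**
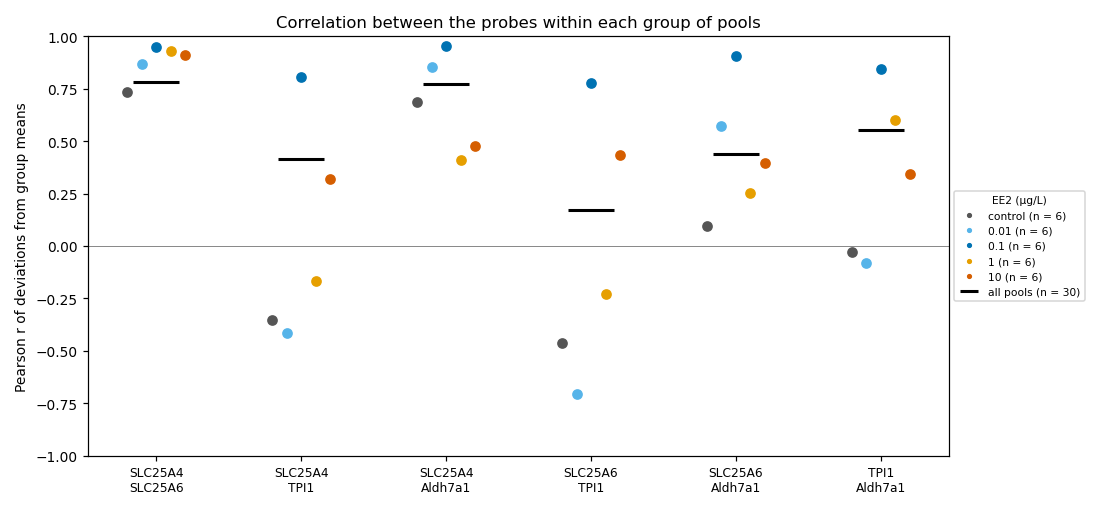
Pearson r of deviations from group means (vertical axis) for each pair of probes (horizontal axis), as dots for the 6 pools of each EE2 concentration and as a bar for all 30 pools. At 0.1 μgEE2/L every pair lay between 0.78 and 0.95, and pairs with TPI1 lay on both sides of 0 in the other groups. All 4 probes at 0.1 μgEE2/L were highest on replicate 1 and lowest on replicate 4.

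Many other probes varied as closely with these genes. Among 49867 other probes well above background on at least 15 arrays, SLC25A6 and Aldh7a1 took ranks 269 and 297 by r with SLC25A4 within groups, and 977 probes had an r above 0.7. By r with SLC25A6, SLC25A4 took rank 1002 and Aldh7a1 rank 8275, and 2305 probes had an r above 0.7. By r with Aldh7a1, SLC25A4 took rank 425. Over all arrays, with the group means kept, which the choice of the probes used, Aldh7a1 and SLC25A6 took ranks 5 and 14 for SLC25A4 (r = 0.87 and 0.85, as a description). The 3 probes nearest to each gene within groups carry no gene name on the array and none is among the 4. They were TC117172, TC95487 and TC100983 for SLC25A4, each with r = 0.88 or 0.89, and TC120375, TC98783 and CUST_21222_PI425536763 for SLC25A6, with r from 0.95 to 0.93. For TPI1 they were CUST_8110_PI425536763, CUST_21770_PI425536763 and CUST_8761_PI425536763, with r from 0.96 to 0.93. For Aldh7a1 they were CUST_8388_PI425536763, CUST_7268_PI425536763 and TC101744, with r from 0.95 to 0.93. Over all arrays the nearest were TC100983, CUST_7960_PI425536763 and TC127650 for SLC25A4 (0.95 to 0.87) and TC120959, CUST_7771_PI425536763 and TC126057 for SLC25A6 (0.91 to 0.86). CUST_21770_PI425536763, CUST_8185_PI425536763 and CUST_8110_PI425536763 were nearest to TPI1 (0.96 for each), and CUST_8388_PI425536763, CUST_12077_PI425536763 and TC100964 to Aldh7a1 (0.95 to 0.93). Among the nearest by both measures were thus TC100983 for SLC25A4, CUST_21770_PI425536763 and CUST_8110_PI425536763 for TPI1 and CUST_8388_PI425536763 for Aldh7a1, whereas SLC25A6 had no such probe. None of the 34 genes of a list of glycolysis, the citric acid cycle, oxidative phosphorylation and amino acid breakdown could be tied to a probe by the names on the array, so no other gene of these pathways is given.

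The brightness of an array went weakly with the deviations of TPI1 and Aldh7a1. For TPI1 r was 0.39 and rho 0.41 (permutation p = 0.058 and 0.054, adjusted over 4 probes 0.12 and 0.11), and r was 0.59 when the 2 arrays of most extreme brightness were left out. For Aldh7a1 r was 0.39 and rho 0.40 (permutation p = 0.042 and 0.043, adjusted 0.12 and 0.11), and 0.43 without those arrays. For SLC25A4 and SLC25A6 r was 0.20 and 0.06 and rho 0.16 and 0.12 (permutation p = 0.33 and 0.68 for r and 0.40 and 0.53 for rho, adjusted 0.44 and 0.68 for r and 0.53 and 0.53 for rho), and 0.19 and 0.10 without those arrays. No relation passed the threshold after adjustment. Within the group at 0.1 μgEE2/L alone, r with brightness was 0.93 for TPI1, 0.70 for Aldh7a1, 0.60 for SLC25A4 and 0.52 for SLC25A6 (n = 6 pools), and replicate 4, with the lowest level of all 4 probes in its group, was also the dimmest array of it. At 10 μgEE2/L r with brightness was 0.89 for Aldh7a1 (n = 6 pools). The other values by group lay between -0.34 and 0.40. The part of brightness in these levels was not tested further.

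**Figure D5:**
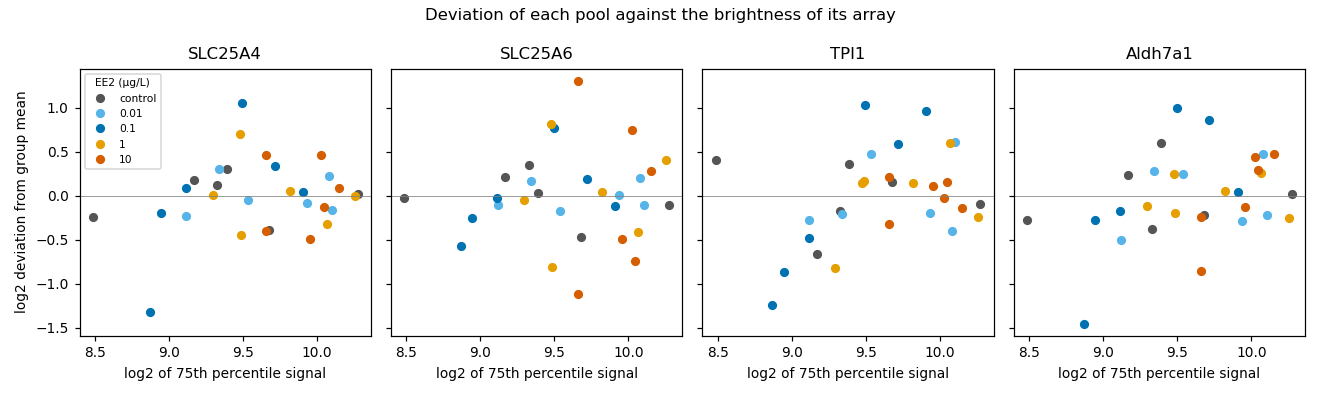
Deviation of each pool from its group mean on the log2 scale (vertical axis) against the log2 of the 75th percentile of the array's processed signal (horizontal axis) for each probe, colours are EE2 concentrations. The points at 0.1 μgEE2/L rise with brightness for TPI1 (r = 0.93, n = 6 pools), whereas over all 30 pools r is 0.39.

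FOXL2 was higher than in the control at both lower concentrations, where these genes were lower. Its level was 7.95 ± 0.87 in the control against 9.93 ± 0.37 at 0.01 μgEE2/L and 9.79 ± 0.22 at 0.1 μgEE2/L (SD, n = 6). At 1 and 10 μgEE2/L it was 8.65 ± 0.19 and 8.69 ± 0.17 (SD, n = 6), 1.62-fold and 1.67-fold above the control, where the log2 difference of SLC25A6 was 0.21 and -0.04 (SE 0.31). The r over all arrays, a description since FOXL2 was chosen by the same contrasts, lay between -0.74 for SLC25A4 and -0.62 for TPI1. Within groups r was -0.22 for SLC25A4, -0.21 for SLC25A6, -0.08 for TPI1 and -0.19 for Aldh7a1, with permutation p of 0.11, 0.074, 0.64 and 0.23 (adjusted 0.22, 0.22, 0.64 and 0.30). Without the 2 pools farthest from the median of FOXL2, r was -0.19, -0.12, -0.16 and -0.24. None of the 4 passed, so that a lower level of these genes in pools with more FOXL2 was not detected over the 30 pools together. FOXL2 varied most in the control, with an SD of 0.87 against 0.17 to 0.37 in the other groups. In the control r was -0.65 for SLC25A4, -0.74 for SLC25A6, 0.27 for TPI1 and -0.45 for Aldh7a1 (n = 6 pools). Across the 5 groups r was above 0 in 2, 1, 3 and 2 for these probes in turn. The r of single groups was not tested. In the control, replicates 2 and 6, with the highest FOXL2, had 7.54 and 7.13 of SLC25A4 and 9.61 and 9.26 of SLC25A6. For both translocases replicate 6 was the lowest control. The same replicates 2 and 6 had 8.91 and 9.15 of TPI1 and 7.56 and 7.32 of Aldh7a1, and neither was the lowest control of these probes.

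Tanks of a concentration were compared with limma, in an F test that took all tank differences together and called 0.00997% of all probes and none of the 4 (unadjusted p = 0.0048 for Aldh7a1 and 0.088, 0.33 and 0.11 for SLC25A4, SLC25A6 and TPI1, adjusted p from 0.62 to 0.82). The correlation between pools of a tank used deviations from the group mean, so for unrelated pools it is expected below 0. Over the 15 tanks, pools from the same tank correlated at 0.47 for Aldh7a1 (one-sided permutation p = 0.0073, adjusted over 4 probes 0.029), 0.15 for SLC25A4, -0.13 for SLC25A6 and 0.10 for TPI1 (one-sided permutation p = 0.084, 0.45 and 0.30, adjusted 0.17, 0.45 and 0.40). At 0.1 μgEE2/L, for example, the pools of the first tank had 7.32 and 7.19 of Aldh7a1, those of the second 6.15 and 4.87 and those of the third 6.37 and 6.05. Pools of a tank of Aldh7a1 thus resembled each other, but this depends on which labels are used. The labels of 3 pairs of pools are exchanged between the deposited table and the scanner files, and under the labels of the table the correlation for Aldh7a1 was 0.18 (adjusted permutation p = 0.28). For TPI1 it then rose to 0.39 (one-sided permutation p = 0.040, adjusted 0.16), with an unadjusted p of 0.0099 in the limma F test (adjusted 0.42). SLC25A4 and SLC25A6 then had -0.10 and -0.40 (adjusted permutation p = 0.55 and 0.64). The exchange does not cross concentrations. Slides called 0.0914% of all probes in an F test and none of the 4 (adjusted p from 0.87 to 0.94, unadjusted from 0.56 to 0.81).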

How the data were processed

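The authors read the arrays with Agilent Feature Extraction 10.7.3.1. The deposited scanner files hold a processed signal (an intensity with background subtracted), a median intensity and a local background, and the deposited table holds log2 values after the authors' quantile normalisation (R 2.15.3 per the submitters' processing notes). Here outlier spots were left out, spots of a probe were averaged, and log2 processed signals were quantile normalised and fitted with limma 3.58.1 in R 4.3.3, with 1 mean per concentration as in the study's methods and p-values adjusted over 60195 probes by Benjamini-Hochberg at 0.05. Array number limits precision. Pools of a tank were taken as independent, and p-values measure the spread between pools. Correlations used 100000 permutations within groups. The 4 probes and the gene lists were chosen with earlier results of these data known. Besides them the text names FOXL2 and, for each, the 3 probes with the highest r by each measure. Sequences were not used here. The fit and correlations were tested on simulated data. Alternatives changed normalisation, background, filters, weights, blocks and arrays left out.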

Additional observations from a re-analysis of the deposited data

How the results depend on the processing

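The median difference of the 4 probes kept its sign in CT1 to CT4 in all 43 alternatives, which is a description only. CT1 and CT2 chose the probes by their lower level. The filter on dim probes, tank means, the tank as a random block and the replicate block cannot change a difference of group means here. An array left out from another group can change a contrast only through the normalisation. Leaving out 1 array, the median difference lay between -1.16 and -1.08 in CT1 and between -1.55 and -1.10 in CT2. In CT3 it lay between -0.64 and -0.45, and in CT4 between -0.64 and -0.43. Other settings moved the median in CT1 further, to -1.24 with brightness as a covariate and to -0.89 with normexp. With normexp SLC25A4, TPI1 and Aldh7a1 were at -0.87, -0.92 and -0.84 in CT1, less than 2-fold lower. SLC25A6 stayed over 2-fold lower there, at -1.03. In CT2 SLC25A4 was at -0.98 with normexp, against -1.48 without it. Same-numbered pools of different groups correlated over all probes at a median of 0.02, from -0.46 to 0.43, with 21 of 60 pairs over 0.1. The median of the 300 other pairs between groups was -0.02, and how many of these were over 0.1 was not counted. Whether replicate numbers pair the pools was not tested. Every group holds the same replicate numbers, so a replicate block cannot change the medians of -1.12, -1.35, -0.55 and -0.55. With it the SE in CT1 was 0.23 for SLC25A4, 0.27 for SLC25A6, 0.34 for TPI1 and 0.24 for Aldh7a1. Without it the SE was 0.26, 0.31, 0.32 and 0.30. Between 0.01 and 0.1 μgEE2/L, 6402 of all probes were called with this block, against 6313 without it.

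Differences near 0 turned sign. From 0.01 to 0.1 μgEE2/L, SLC25A6 was 0.0041 with normexp and between -0.20 and 0.071 leaving out 1 array, and Aldh7a1 was 0.0073 with brightness as a covariate and between -0.36 and 0.13 leaving out 1 array, both highest without replicate 4 at 0.1 μgEE2/L. From 1 to 10 μgEE2/L, leaving out 1 array gave -0.22 to 0.013 for SLC25A4 and -0.24 to 0.042 for TPI1. SLC25A6 in CT4 was 0.22 with median centring.

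The correlations of SLC25A4 with SLC25A6 (0.75 to 0.84 leaving out 1 array) and with Aldh7a1 (0.64 to 0.82) passed in every setting tried. That of SLC25A6 with Aldh7a1 lost its call at 75th percentile scaling (0.39), without the 2 arrays with a dim middle (0.36), without the 0.1 μgEE2/L group (0.30) and without single arrays (0.33 to 0.57). That of TPI1 with Aldh7a1 lost it at 75th percentile scaling (0.43), with brightness (0.47), without the dim arrays (0.50), without the 0.1 μgEE2/L group (0.14), over tank means (0.65) and without single arrays (0.38 to 0.60). Without the 0.1 μgEE2/L group, r of TPI1 was -0.15 with SLC25A4 and -0.091 with SLC25A6. Settings without a group, over tank means or without the dim arrays were chosen after the data had been seen.

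The r with brightness turned to -0.0070 for SLC25A4 at 75th percentile scaling and to -0.053 for SLC25A6 with normexp, and to -0.013 and -0.028 without the 0.1 μgEE2/L group. For TPI1 it was 0.63 over tank means (adjusted permutation p = 0.025). The r of FOXL2 with TPI1 was 0.074 with median centring and 0.023 without the 0.1 μgEE2/L group. Under the labels of the table, the correlation between pools of a tank was -0.10 for SLC25A4, -0.40 for SLC25A6, 0.39 for TPI1 and 0.18 for Aldh7a1. The cause of these changes was not tested.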
